A study of Mus musculus with 24 samples.

Results

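The naive pluripotency regulators described here are 9 genes, chosen by name: Nanog, Esrrb, Tfcp2l1, Zfp42, Tbx3, Prdm14, Nr0b1, Fbxo15 and Tcl1. Each matched a single row among the 51912 genes of the RNA-seq count tables. Their expression was followed in 3 groups of mouse cells with 3 libraries each. ESCs were wild-type embryonic stem cells of the TC-1 line (strain C57BL/6 X 129S5), grown on gelatin with LIF, the cytokine that holds mouse ESCs in self-renewal. NPs (neuronal progenitors) were obtained from the same wild-type cells through cellular aggregates and retinoic acid and collected at the end of this differentiation. TET TKO ESCs carry knockouts of TET1, TET2 and TET3, the enzymes that oxidise 5-methylcytosine, in a separate line of strain C57BL/6 X 129/sv. The TET TKO ESCs therefore differed from the ESCs in genotype, line and strain, and also in sequencing depth, and these cannot be told apart.

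In the naive state, the state of the preimplantation epiblast that mouse ESCs resemble in culture, OCT4 and SOX2 act with a layer of auxiliary factors. NANOG, ESRRB, TFCP2L1 and TBX3 are DNA-binding factors of this layer, and several of them respond to LIF through STAT3 or to the release of TCF7L1 repression by WNT signalling. PRDM14 and NR0B1 act mostly as repressors, while Zfp42 (REX1), Fbxo15 and Tcl1 are known chiefly as targets and markers of the network. When cells leave the naive state, this layer is shut down before Sox2 and Pou5f1 (the gene for OCT4), and neural cells keep Sox2.

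The libraries held 20570050 to 23976914 counts assigned to genes in ESCs, 20519702 to 22132988 in NPs and 80704741 to 93210102 in TET TKO ESCs. Levels are given as RPKM (read counts per exon length and library size, with library sizes scaled by TMM), and unless stated otherwise as mean ± SD over n = 3 libraries. Pou5f1 and Sox2, which mark pluripotent cells, were at 393 and 226 RPKM in ESCs and at 296 and 235 RPKM in TET TKO ESCs. Of 10 neural progenitor markers, 7 stayed under 1 RPKM in every ESC library and 0 did so in every NP library. Tet1 was measured at 65.9, 60.8 and 68.5 RPKM in ESCs and at 13.2, 16.1 and 11.3 RPKM in TET TKO ESCs, and Tet2 at 20.5, 20.3 and 16.1 against 2.42, 2.7 and 2.32 RPKM. Tet3 was under 1 RPKM in both. Counts cover whole genes, and reads inside and outside the deleted parts were not separated. The third TET TKO library stood apart from both others of its group by more than 2-fold at 2.49% of expressed genes and the second NP library at 1.97%, the largest shares of the 9 libraries.

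RefSeq promoter windows on GRCm38.p6 were found for 6 of the 9 genes, with 2 transcription starts each for Nanog and Esrrb. The 250 bases before the start are printed 5′ to 3′ on the strand of the gene for 4 genes that mark the range of the results: Nanog, a central factor of the network, Zfp42, the regulator called lower in TET TKO ESCs, and Nr0b1 and Tcl1, the genes with the smallest and the largest fall in NPs. Capitals mark exact matches, on either strand, to 8 short motifs: the octamer, SOX, ESRRB, KLF, T-box and PRDM14 motifs, a STAT site and the TATA core.
Nanog: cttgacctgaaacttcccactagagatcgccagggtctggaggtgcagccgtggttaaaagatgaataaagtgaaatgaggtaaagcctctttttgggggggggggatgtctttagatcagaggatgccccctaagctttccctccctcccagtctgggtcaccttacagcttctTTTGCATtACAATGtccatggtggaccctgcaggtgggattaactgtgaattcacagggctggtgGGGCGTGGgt
Zfp42: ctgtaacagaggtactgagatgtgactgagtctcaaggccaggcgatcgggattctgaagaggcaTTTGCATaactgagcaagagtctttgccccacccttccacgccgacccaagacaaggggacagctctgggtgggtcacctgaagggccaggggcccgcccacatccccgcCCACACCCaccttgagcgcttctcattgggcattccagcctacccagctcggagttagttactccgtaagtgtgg
Nr0b1: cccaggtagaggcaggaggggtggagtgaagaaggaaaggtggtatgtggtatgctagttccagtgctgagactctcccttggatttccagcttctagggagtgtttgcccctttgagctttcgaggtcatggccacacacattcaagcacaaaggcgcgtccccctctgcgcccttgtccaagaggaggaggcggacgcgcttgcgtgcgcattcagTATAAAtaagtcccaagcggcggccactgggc
Tcl1: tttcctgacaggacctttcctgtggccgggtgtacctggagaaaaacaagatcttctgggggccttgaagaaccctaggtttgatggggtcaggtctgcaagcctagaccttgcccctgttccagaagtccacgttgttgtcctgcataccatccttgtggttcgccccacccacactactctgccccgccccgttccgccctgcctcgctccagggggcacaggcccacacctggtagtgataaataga

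These windows lie at chr6:122707239-122707488 (plus strand) for Nanog, chr8:43307010-43307259 (minus strand) for Zfp42, chrX:86191525-86191774 (plus strand) for Nr0b1 and chr12:105222738-105222987 (minus strand) for Tcl1. The Nanog window holds the octamer core TTTGCAT from 75 to 69 bases and the SOX core ACAATG from 67 to 62 bases before the start, on the same strand. It also holds a KLF core, GGGNGTGG, at 10 to 3 bases before the start. Zfp42 shares the octamer core, at 185 to 179 bases, and a KLF core in the opposite orientation at 75 to 68 bases. In Nr0b1 the only match was the TATA core, TATAAA, at 32 to 27 bases, and Tcl1 held none of the 8 motifs. Of the windows not printed, Tfcp2l1 holds 2 KLF cores and a TATA core, the first start of Esrrb a STAT site (TTCNNNGAA), and the second start of Esrrb none. The second start of Nanog repeats its octamer, SOX and KLF cores with another KLF core. The ESRRB core AAGGTCA, the T-box half-site AGGTGTGA and the PRDM14 site GGTCTCTAA matched in 0 of the 8 windows. Among the same windows of 32851 promoters, the octamer core was found in 4.12%, the SOX core in 10.7%, the KLF core in 15.9%, the STAT site in 7.02%, the TATA core in 12.4%, the ESRRB core in 4.08%, the T-box half-site in 1.12% and the PRDM14 site in 0.24%. CpGs, the sites that TET enzymes demethylate, numbered 3 in the Nanog window, 7 in Tcl1, 9 in Zfp42, 11 in Nr0b1, 16 in Tfcp2l1, and 6 and 3 in Esrrb, against a median of 6 over all promoters (quartiles 2 and 16). These matches describe letters and not bound sites.

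In ESCs, all 9 genes were well expressed. Zfp42 was the highest at 304 ± 5.63 RPKM, followed by Nanog at 283 ± 13.6, Fbxo15 at 241 ± 31, Esrrb at 155 ± 8.55 and Tfcp2l1 at 89.5 ± 0.545 RPKM. Tcl1 at 65.2 ± 7.13, Nr0b1 at 64 ± 4.46 and Tbx3 at 57.3 ± 6.12 RPKM came next, and Prdm14 was the lowest at 21.2 ± 0.413 RPKM. Neighbours in this order had separate ranges over the 3 libraries, except Tcl1 and Nr0b1 and then Nr0b1 and Tbx3, whose ranges overlapped. Among the genes that reached 1 RPKM in a library, the ESC level of Zfp42 lay at percentile 99.7 and that of Prdm14 at percentile 81.6. The order depends on the scale: in counts per library size without gene length, Esrrb and Tfcp2l1 with their long transcripts (6047 and 9438 exonic bases) ranked 1 and 2, and Zfp42 (1881 bases) ranked 4.

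**Figure D1:**
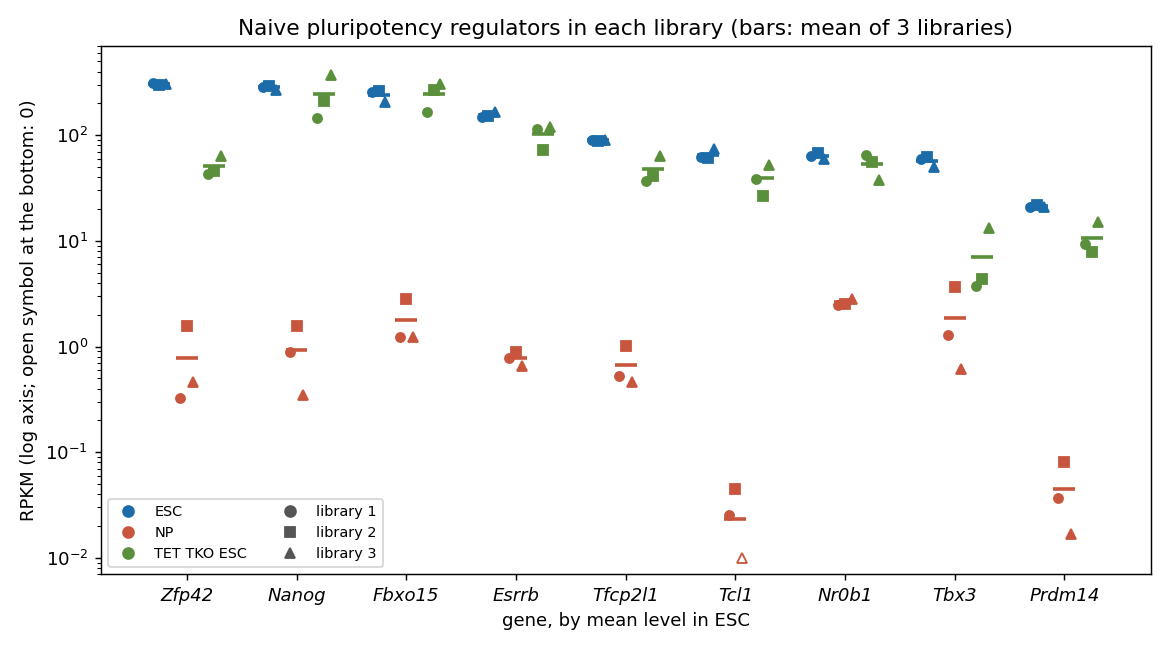
RPKM on a log axis of the 9 naive pluripotency regulators in each of 3 ESC, 3 NP and 3 TET TKO ESC libraries (points, shape by library number; bars, mean of 3). NP points lie below all ESC points for every gene, with means from 65.2 against 0.0233 RPKM for Tcl1 to 64 against 2.61 RPKM for Nr0b1, and most TET TKO points lie between, with the spread of TET TKO points wider than that of ESC points.

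The first comparison asks what became of the naive regulators when the ESCs were differentiated into NPs. All 9 were lower in NPs, with every NP library below every ESC library, and the remaining level ran from 0.0358% of the ESC mean for Tcl1 to 4.08% for Nr0b1. Genes were called at an adjusted p under 0.001 with a change of at least 3-fold, by edgeR's quasi-likelihood test, adjusted by the Benjamini-Hochberg method over 15197 genes. By this rule 9 of 9 naive regulators fell, against 9.98% of all genes tested, and 0 rose, against 12.4%. Separation of the libraries without overlap was seen downwards in 35.6% and upwards in 36.3% of all genes. The median log2 fold change of the 9 was −7.65 and that of all genes 0.04 (−0.26 with upper-quartile scaling, which moved the share of lower genes among those called from 44.5% to 54.9%). Esrrb, Prdm14 and Tcl1 entered the test through their ESC libraries alone, as they stayed under 1 RPKM in every NP library. In bulk libraries, fewer cells with a transcript and less transcript per cell cannot be told apart.

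Among the DNA-binding factors named first, Nanog, the homeodomain factor, was measured at 286, 295 and 268 RPKM in ESCs and 0.879, 1.56 and 0.346 RPKM in NPs. Esrrb, an orphan nuclear receptor, went from 149, 152 and 165 RPKM to 0.784, 0.885 and 0.657 RPKM. Tfcp2l1, a CP2-family factor downstream of LIF, went from 89.7, 88.9 and 90 RPKM to 0.522, 1.01 and 0.457 RPKM. All 3 genes thus kept under 2 RPKM in each NP library, with the second library the highest. Their log2 fold changes were −8.25 ± 0.42 (SE) for Nanog, −7.65 ± 0.158 for Esrrb and −7.08 ± 0.306 for Tfcp2l1, with adjusted p from edgeR of 1.72e-06, 1.32e-07 and 8.57e-07. The T-box factor Tbx3 retained more: 59.7, 61.8 and 50.3 RPKM in ESCs against 1.29, 3.7 and 0.612 RPKM in NPs, a log2 fold change of −4.95 ± 0.571 (adjusted p = 0.000109, edgeR). Its NP libraries spread 6.05-fold from lowest to highest, the widest of the 8 genes with a count in every NP library.

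Of the repressors, Prdm14, a PR-domain protein that restrains the de novo DNA methyltransferases, was measured at 21, 21.7 and 21 RPKM in ESCs and 0.0366, 0.0802 and 0.0168 RPKM in NPs. The NP values rest on 2, 5 and 1 counts. Summed over libraries and scaled for depth, the ratio of ESC to NP was 468 (95% exact interval 237 to 1080, counting error only), and the fitted log2 fold change was −8.81 ± 0.299 (adjusted p = 3.36e-07, edgeR). Nr0b1 (DAX1), an orphan nuclear receptor that binds other factors of the network, was measured at 63.5, 68.6 and 59.7 RPKM in ESCs and 2.47, 2.55 and 2.82 RPKM in NPs. Its NP libraries spread 1.14-fold, the least of the 9 genes. It kept the largest share of its ESC level, with a log2 fold change of −4.61 ± 0.14 (adjusted p = 2.79e-07, edgeR). It was also the only gene of the 9 whose NP value was not highest in the second library.

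Among the markers and targets, Zfp42, the zinc finger gene also known as Rex1, went from 309, 298 and 306 RPKM to 0.324, 1.57 and 0.459 RPKM, a log2 fold change of −8.57 ± 0.473 (adjusted p = 2.49e-06, edgeR). Fbxo15, an F-box gene used as a reporter of reprogramming, went from 259, 260 and 206 RPKM to 1.24, 2.83 and 1.23 RPKM, with −7.08 ± 0.326 on the log2 scale (adjusted p = 1.06e-06). Tcl1, a coactivator of the kinase AKT, was close to undetected: 61.9, 60.4 and 73.4 RPKM in ESCs stood against 1, 2 and 0 counts in NPs. The summed counts were 8193 and 3, a depth-scaled ratio of 2770 (95% exact interval 949 to 13500, counting error only). Its fitted log2 fold change of −11.26 ± 0.316 (adjusted p = 2.45e-07, edgeR) depends on the prior count of the fit. Tcl1 had the fifth lowest fold change of the 15197 genes, while Nr0b1 and Tbx3 stood at ranks 640 and 547.

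In NPs the mean levels ran from 2.61 RPKM for Nr0b1 to 0.0233 RPKM for Tcl1. The NP libraries of Nr0b1 (2.47 RPKM or more) lay above those of Nanog, Zfp42, Esrrb and Tfcp2l1 (1.57 RPKM or less). Nr0b1 at 2.61 ± 0.183, Tbx3 at 1.87 ± 1.62, Fbxo15 at 1.77 ± 0.923, Nanog at 0.929 ± 0.608, Zfp42 at 0.786 ± 0.687, Esrrb at 0.775 ± 0.114 and Tfcp2l1 at 0.664 ± 0.303 RPKM each overlapped their neighbour in range. Below them and apart came Prdm14 at 0.0446 ± 0.0324 and Tcl1 at 0.0233 ± 0.0224 RPKM. For Tcl1, 3 counts in an NP library would correspond to 0.0669 to 0.0763 RPKM, so its NP level is at the limit of detection. The second NP library was the highest for 8 of the 9 genes, with a summed level of 14.2 RPKM against 7.57 and 6.6. It also had the highest sum of 7 fibroblast markers (38.2 against 19.3 and 3.98 RPKM), with Dcn and Lum under 1 RPKM throughout, and the lowest sum of the neural markers (211 against 410 and 317 RPKM). The part of these in the residual levels was not tested. Without this library, 9 of 9 genes were still called lower, and 5 of the falls were larger by more than 1.5-fold: the log2 fold change was −8.86 for Nanog, −9.58 for Zfp42, −5.92 for Tbx3, −9.54 for Prdm14 and −12.07 for Tcl1.

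The second comparison asks how the regulators stood in ESCs without TET enzymes. It uses the same ESC libraries as the first, so its values are set beside the first without an overlap or correlation. Zfp42 fell 6.05-fold in TET TKO ESCs and was the 1 of 9 genes called, against 1.21% of 13939 genes called lower. None rose, against 1.1% of all genes. Tbx3 was lower by a larger fold of 8.14 but missed the threshold on p (adjusted p = 0.00291, edgeR). In 6 of the 9 genes every TET TKO library lay below every ESC library, as in 19.6% of all genes, and in 0 genes above, as in 32.2%. At an adjusted p under 0.05 with no fold limit, the genes Esrrb, Tfcp2l1, Zfp42, Tbx3, Prdm14 and Tcl1 were lower, where 12.7% of all genes were. The median log2 fold change of the 9 was −0.74, that of all genes 0.12. With library sizes alone the median of all genes was −0.05, and the share of lower genes among those called went from 52.5% to 65.9%. Relative to the median of all genes, each of the 9 genes was lower under every scaling tried. Without the first TET TKO library 8 of the 9 were, with Fbxo15 at 0.24 against a median of 0.12.

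Zfp42 was at 42.7, 46 and 63.2 RPKM in the TET TKO libraries, against 298 to 309 RPKM in ESCs. Its mean was 50.6 ± 11 RPKM, or 16.6% of the ESC mean, and its log2 fold change was −2.6 ± 0.16 (adjusted p = 8.59e-05, edgeR). The 3 libraries gave 14%, 15.1% and 20.8% of the ESC level, so the fall was of like size in each. The gene was called in each of the 16 other settings tried. Tbx3 was at 3.71, 4.34 and 13.1 RPKM, which is 6.48%, 7.57% and 23% of the ESC mean. The third library was 3.54 times the lowest, and the log2 fold change was −3.02 ± 0.475. Without the third TET TKO library, Tbx3 was called, at −3.84 (adjusted p = 3.89e-05, edgeR), and so it was by DESeq2, at −3.14 (adjusted p = 6.28e-06), and without the filter on low counts (adjusted p = 1.06e-07).

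A middle group kept 50.6% to 65.8% of the ESC level. Prdm14 was at 9.36, 7.79 and 15.1 RPKM, with a log2 fold change of −0.99 ± 0.234 (adjusted p = 0.0146, edgeR). Tfcp2l1 was at 37.1, 41.5 and 63.6 RPKM, with −0.93 ± 0.194 (adjusted p = 0.00915). Tcl1 was at 38.4, 26.8 and 52.5 RPKM, with −0.74 ± 0.23 (adjusted p = 0.0389). In these genes and in Esrrb, the TET TKO values lay below the ESC values without overlap, but none reached a 3-fold difference. Esrrb was at 114, 72.8 and 120 RPKM, with −0.61 ± 0.184 (adjusted p = 0.035, edgeR).

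The ranges of Nr0b1, Nanog and Fbxo15 overlapped between the groups. Nr0b1 was at 64.9, 55.7 and 38.1 RPKM, a log2 fold change of −0.28 ± 0.184 (adjusted p = 0.266, edgeR). Nanog varied 2.56-fold between the TET TKO libraries, more than any of the 9 genes but Tbx3, with 146, 210 and 373 RPKM, that is 51.6%, 74.2% and 132% of the ESC mean, and a log2 fold change of −0.23 ± 0.298 (adjusted p = 0.579). Its sign turned, to 0.03, without the first TET TKO library. Fbxo15 was at 167, 269 and 303 RPKM, with 0.02 ± 0.214 (adjusted p = 0.95), a value that was negative with library sizes alone (−0.14), upper-quartile scaling (−0.12) and DESeq2 (−0.09). Relative to the median of all genes the 3 values were −0.41 for Nr0b1, −0.35 for Nanog and −0.1 for Fbxo15.

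**Figure D2:**
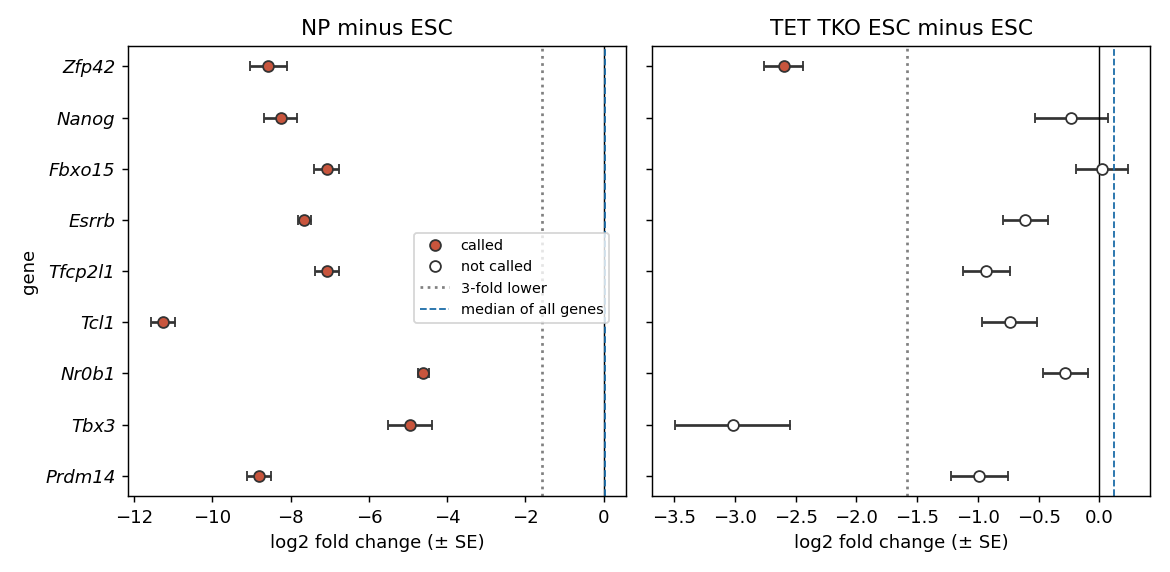
Log2 fold change with SE (bars) of the 9 genes in NPs (left) and TET TKO ESCs (right) against the same 3 ESC libraries, on axes of different length. Filled points were called (adjusted p under 0.001 and at least 3-fold): 9 of 9 in NPs, from −11.26 to −4.61, and Zfp42 alone in TET TKO ESCs, where Tbx3 at −3.02 is past the fold limit but not called and Fbxo15 lies at 0.02, with a sign that changes with the scaling.

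The order of levels in TET TKO ESCs was led by Fbxo15 at 246 ± 71 and Nanog at 243 ± 117 RPKM, which overlapped, followed by Esrrb at 102 ± 25.6 RPKM. Nr0b1 at 52.9 ± 13.6, Zfp42 at 50.6 ± 11, Tfcp2l1 at 47.4 ± 14.2 and Tcl1 at 39.2 ± 12.8 RPKM overlapped each with the next. Prdm14 at 10.7 ± 3.84 and Tbx3 at 7.07 ± 5.28 RPKM were the lowest and overlapped. Zfp42 was thus rank 1 in ESCs and rank 5 in TET TKO ESCs, and Tbx3 moved from rank 8 to rank 9.

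**Figure D3:**
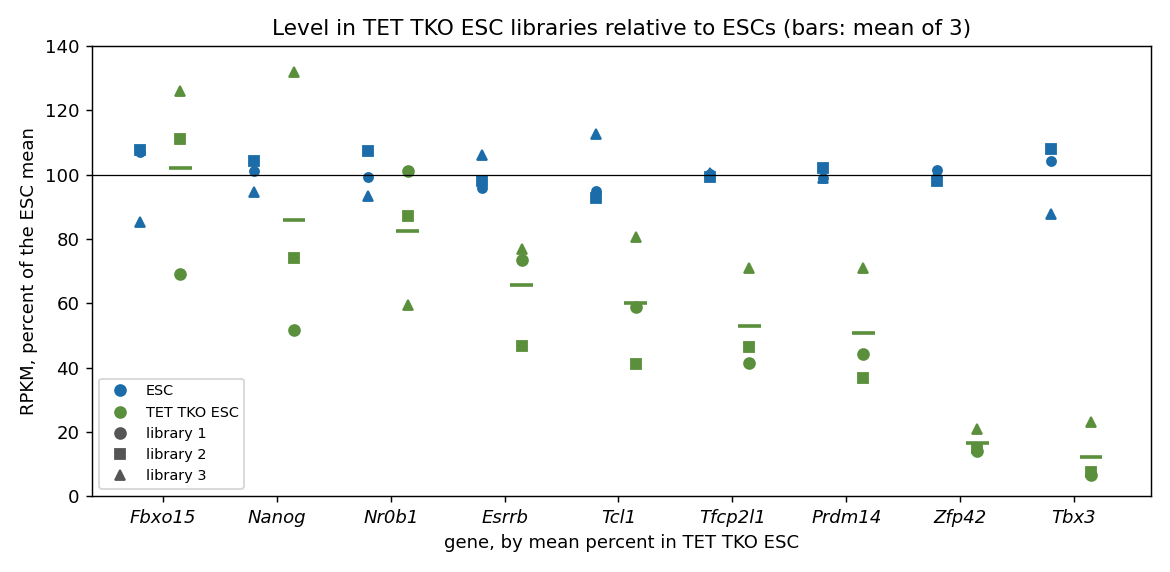
RPKM of each gene in the ESC (blue) and TET TKO ESC (green) libraries as percent of the ESC mean, on a linear axis from 0 (points, shape by library number; green bars, mean of 3 TET TKO libraries). The means run from 102% for Fbxo15 to 16.6% for Zfp42 and 12.3% for Tbx3, and the third TET TKO library (triangles) is the highest green point for 8 genes and the lowest for Nr0b1.

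The third TET TKO library was the highest of its group for 8 of the 9 genes and the lowest for Nr0b1. The summed level of the 9 genes was 623, 734 and 1040 RPKM in the 3 TET TKO libraries and 1240 to 1310 RPKM in ESCs. In that library, Pou5f1 was the lowest of its group (335, 343 and 209 RPKM). The summed level of 12 primed and formative genes was also the lowest there (380, 532 and 237 RPKM). In that list Dnmt3l and Dnmt3b had the largest means in TET TKO ESCs, 228 and 90.2 RPKM. The sum of the 10 neural markers was likewise the lowest in the third library (54.6, 82.9 and 33 RPKM). Of these 10 markers, 6 were under 1 RPKM in every TET TKO library, and Tubb3 alone had a mean of 38.8 RPKM. The sum of 5 trophoblast markers was the highest in the third library, at 61, 54 and 96.2 RPKM against 19.9 to 26 RPKM in ESCs, with Cdx2 and Elf5 under 1 RPKM. Most of this sum was Tfap2c, with a mean of 57.1 RPKM in TET TKO ESCs and 20.2 RPKM in ESCs. The part of these differences between libraries in the differences between ESCs and TET TKO ESCs was not tested.

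The other genes of the pluripotency network, 20 in the list used, were compared in the same fits. In NPs 19 of 20 fell and 0 rose, beside 9.98% and 12.4% of all genes, with a median log2 fold change of −5.82. The largest falls were in Tdgf1 (the Nodal co-receptor Cripto, −10.4 ± 0.52, adjusted p = 1.59e-06), Tdh (threonine dehydrogenase, −9.1 ± 0.148, 3.71e-08), Fgf4 (−8.79 ± 0.315, 4.02e-07) and Pou5f1 (−8.49 ± 0.412, 1.35e-06; edgeR). Tdgf1, Tdh and Fgf4 were among 8 of the 20 genes under 1 RPKM in every NP library. These 8 genes entered the test through their ESC libraries alone. Sox2 fell the least of those called, from 226 to 54 RPKM (−2.07 ± 0.132, adjusted p = 5.05e-06), and Gbx2 was not called (−0.72 ± 0.292, adjusted p = 0.057). In TET TKO ESCs 0 of the 20 were called, beside 1.21% of all genes lower and 1.1% higher, and the median was −0.16. Every TET TKO library lay below every ESC library in 5 of the 20 genes and above in 2, beside 19.6% and 32.2% of all genes. Dppa3 was higher in TET TKO ESCs, from 8.24 to 88.9 RPKM, but missed the threshold on p (3.41 ± 0.419, adjusted p = 0.00113, edgeR). Pou5f1 there stood at −0.42 ± 0.181 (adjusted p = 0.108) and Sox2 at 0.04 ± 0.131 (adjusted p = 0.828, edgeR).

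The LIF and STAT3 pathway lies upstream of several of the 9 genes. In NPs 3 of its 8 listed genes fell and 0 rose (median −1.06), beside 9.98% and 12.4% of all genes: the receptor Lifr (−2.66 ± 0.152, adjusted p = 2.97e-06), the feedback inhibitor Socs3 (−2.26 ± 0.293, 0.000209) and the kinase gene Pim3 (−1.91 ± 0.165, 2.27e-05; edgeR). In TET TKO ESCs 0 of 8 were called, with a median of −0.03, where 1.21% of all genes were called lower and 1.1% higher. Of the genes that mark or drive exit from the naive state, 3 of 12 fell in NPs and 0 rose (median −0.59), beside the same shares of all genes: Etv5, an effector of FGF signalling (−5.03 ± 0.331, adjusted p = 5.98e-06), Zfp281 (−1.73 ± 0.171, 4.66e-05) and Jarid2, a cofactor of Polycomb (−1.7 ± 0.177, 6.2e-05; edgeR). In TET TKO ESCs 0 of 12 were called (median 0.2).

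Genes of the primed or formative state, which follows the naive state in the embryo, were mixed. In NPs 5 of the 11 tested fell and 2 rose, beside 9.98% and 12.4% of all genes, with a median of −0.23. Dnmt3l, a cofactor of the de novo methyltransferases, fell by 8.92 ± 0.4 on the log2 scale (adjusted p = 9.95e-07) and Otx2, a homeobox gene, fell by 5.71 ± 0.238 (7.95e-07; edgeR). Both were under 1 RPKM in every NP library and entered the test through their ESC libraries alone. Sox3 rose by 4.85 ± 0.349 (adjusted p = 9.24e-06) and Cdh2, N-cadherin, by 3.9 ± 0.156 (7.15e-07; edgeR), both of which neural progenitors also express. In TET TKO ESCs 0 of 12 were called, with a median of 0.16, beside 1.21% of all genes lower and 1.1% higher. Every TET TKO library lay below every ESC library in 2 of the 12 and above in 3, beside 19.6% and 32.2% of all genes. The values ran from −1.62 for Otx2 and Foxd3 to 3.62 ± 0.544 for Fgf5 (adjusted p = 0.00243, edgeR). Fgf5 was under 1 RPKM in every ESC library and entered this test through its TET TKO libraries alone. Tet1 and Tet2 were called lower in both comparisons (in NPs −3.97 ± 0.207 and −2.52 ± 0.186, adjusted p = 1.92e-06 and 1.03e-05; in TET TKO ESCs −2.28 ± 0.143 and −2.94 ± 0.129, 8.67e-05 and 1.74e-05; edgeR). Tet3 rose in NPs by 3.45 ± 0.377 (8.15e-05) and was under the filter in the other comparison. It was under 1 RPKM in every ESC library and entered the NP comparison through its NP libraries alone. The 5 Tcl1b paralogs next to Tcl1 were each listed at 0 counts in the NP libraries and summed to at most 0.374 RPKM in ESCs and 1.32 RPKM in TET TKO ESCs, so none passed the filter of the NP comparison and 1 of 5, Tcl1b2, was tested and not called in TET TKO ESCs (adjusted p = 0.318).

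**Figure D4:**
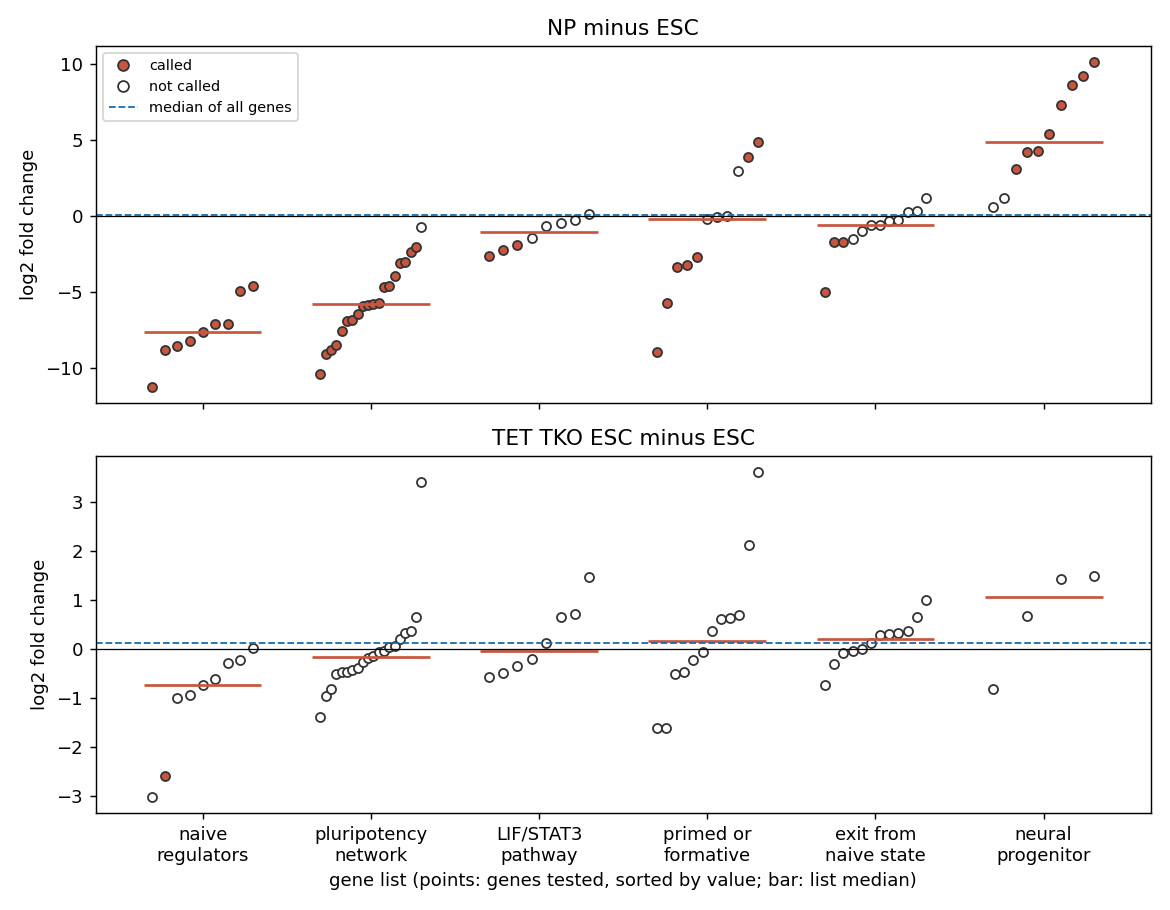
Log2 fold change of every tested gene of 6 lists in NPs (top) and TET TKO ESCs (bottom) against ESCs, sorted within each list, with the list median as a bar and the median of all genes as a dashed line; the vertical scales differ. In NPs the naive regulators (median −7.65) and the pluripotency network (−5.82) lie below the other lists and the neural markers above (4.84), while in TET TKO ESCs Zfp42 is the only filled point.

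Markers of other cell types were set beside these values. In NPs 8 of 10 neural progenitor markers rose and 0 fell, beside 12.4% and 9.98% of all genes, among them Neurog2 (10.11 ± 0.336, adjusted p = 3.36e-07), Hes5 (9.22 ± 0.595, 5.39e-06) and Fabp7 (7.32 ± 0.637, 2.36e-05; edgeR). Of the primitive endoderm markers, 3 of the 5 tested rose: Foxa2 (5.93 ± 0.417), Sox17 (5 ± 0.415) and Gata6 (3.56 ± 0.329), with adjusted p of 8.18e-06, 1.83e-05 and 3.25e-05 (edgeR). Their list summed to 21.7 to 25.3 RPKM in NPs against 1.97 to 3.24 RPKM in ESCs, with Afp and Pdgfra under 1 RPKM. Of the fibroblast markers 2 of 5 tested rose (Col3a1, 6.98 ± 0.995, adjusted p = 0.000358, and Postn, 6.82 ± 0.787, 0.00011; edgeR), while Thy1 stood at −2.87 ± 0.542 (0.00171) and was not called. The genes named so far among these markers that rose were under 1 RPKM in every ESC library and entered the test through their NP libraries alone. Trophoblast markers fell in 2 of 3 tested (Tfap2c, −3.72 ± 0.321, adjusted p = 2.26e-05, and Eomes, −3.56 ± 0.402, 9.71e-05), while Cdx2 stood at 3.08 ± 0.76 (0.00707) and was not called. Eomes was under 1 RPKM in every NP library and entered the test through its ESC libraries alone. Germ cell markers fell in 2 of 5 (Dnd1, −2.32 ± 0.362, 0.000586, and Prdm1, −2.21 ± 0.26, 0.000123; edgeR). In TET TKO ESCs the trophoblast marker Hand1 rose (4.29 ± 0.443, adjusted p = 0.00058, edgeR) from 0.504 to 9.89 RPKM. It was under 1 RPKM in every ESC library and entered the test through its TET TKO libraries alone. It was the only call among the 16 tested genes of these 5 lists. Transcripts used as markers of several lineages were thus measured in the NP samples. Whether cells of these lineages were present, and their part in the levels of the 9 genes, was not tested.

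Likeness of pattern was measured as the root mean square (RMS) difference over the 9 libraries between log2(RPKM + 1) values centred on the mean of each gene, and every other gene with at least 1 RPKM in a library, 15504 in all, was ranked by it. With a pseudocount of 1, differences among NP levels under 1 RPKM weigh little, and falls to such levels are reduced. The closest pairs within the 9 genes were Tfcp2l1 and Tcl1 (0.26), Esrrb and Tcl1 (0.27) and Nanog and Fbxo15 (0.373). Prdm14 was closest to Klf4, a Krüppel-like factor of the network (0.0994), and to Khdc3 (0.16), and Fbxo15 to Klf2 (0.293), another of these factors, and to AU018091 (0.302). The closeness of Prdm14 and Klf4 rests on the pseudocount. Their fitted log2 fold changes in NPs were −8.81 and −4.69, to 0.0446 and 2.79 RPKM. The pseudocount also narrows the difference of Tcl1 from Tfcp2l1 and Esrrb. Fitted log2 fold changes in NPs were −11.26 for Tcl1, −7.08 for Tfcp2l1 and −7.65 for Esrrb. Tfcp2l1 was closest to Ooep (0.174), an oocyte-expressed gene like Khdc3, and then to Tcl1. The second neighbour of Nanog was L1td1 (0.452), and Morc1 stood among the 2 neighbours of Esrrb (0.32) and of Tcl1 (0.25). Nr0b1 was closest to Gm21411 (0.235) and Mybl2 (0.261). Zfp42 and Tbx3 had no neighbour so close: for Zfp42 the nearest were Tfcp2l1 (0.801) and Tcl1 (0.839), and for Tbx3 Rpl39l (0.491), with 122 RPKM in ESCs, 14.7 RPKM in TET TKO ESCs and 3.9 RPKM in NPs, and Phf11d (0.581). Tbx3 and Nanog were the least alike of the 9 genes (2.24).

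**Figure D5:**
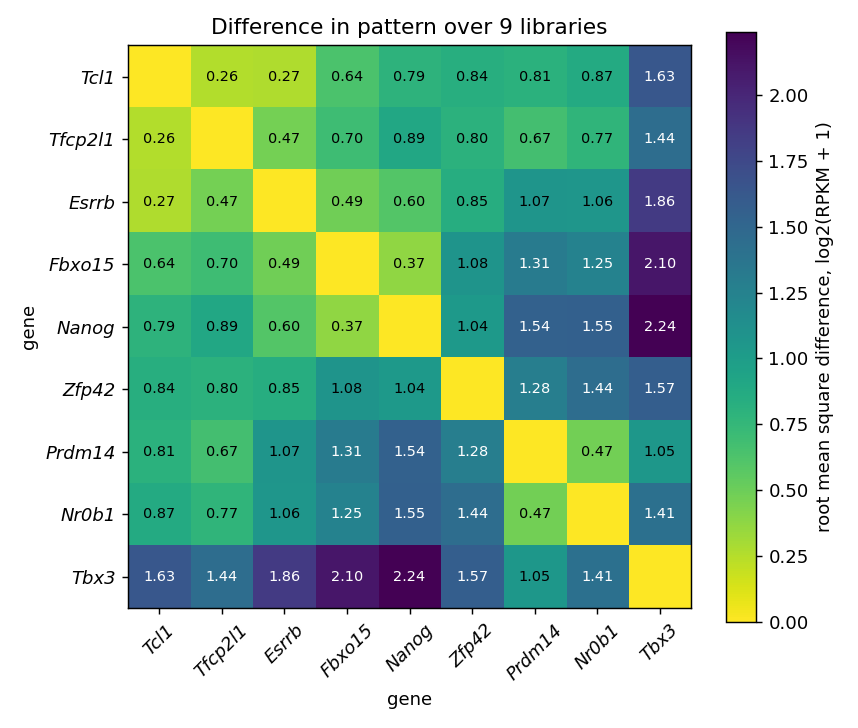
RMS difference in log2(RPKM + 1), centred per gene, between each pair of the 9 genes over 9 libraries (number and colour in each cell; yellow, alike; dark, unlike). Tcl1, Tfcp2l1 and Esrrb form the closest group on this scale (0.26 to 0.471), and Tbx3 differs from every other gene by at least 1.05. The pseudocount of 1 reduces differences between genes at NP levels under 1 RPKM.

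The counting limits some of these values. The exons of Tbx3 share 115 bases, 1.74% of its length, with the antisense gene Tbx3os1. The counts were made without strand and left out reads that overlap 2 genes, so reads in these bases count for neither gene. Tfcp2l1 shares 130 bases with Gm23497, which had 0 counts. Reads matching several places were left out by the authors, which touches Nanog, whose processed pseudogenes Nanog-ps1 and Nanog-ps2 had at most 3 counts in a library.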

How the data were processed

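RNA-seq was analysed in 9 libraries, 3 per group. The other assays of the series were not analysed here. The authors aligned trimmed single-end reads to GRCm38 with STAR 2.6.1b and deposited raw counts per gene, made with featureCounts 1.6.2 on Ensembl 89 exons without strand, leaving out reads that map to several places or overlap 2 genes. The number of columns that matched no sample was 0. The 9 genes, the other lists and the tests were chosen with earlier results of these data known.

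From these counts, library sizes were scaled by TMM, and RPKM used the exonic lengths of the tables and all 9 libraries. Each group was compared with ESCs by the quasi-likelihood F-test of edgeR 4.0.16 (R 4.3.3) on the 6 libraries concerned, for genes of at least 1 RPKM in a library. Genes with an adjusted p under 0.001 (Benjamini-Hochberg) and a change of at least 3-fold were called, and SE is the log2 fold change divided by the square root of F. The test was checked on simulated data. DESeq2 1.42.0, other scalings and filters, looser rules, a fit of all 3 groups, a replicate block, thinned TET TKO counts and each library left out in turn were the alternatives. Pairs of libraries of a group differed by more than sampling noise, with a chi-square per degree of freedom from 2.37 (ESC libraries 1 and 2) to 194. The study describes replicates as biological, and the labels do not say which cultures they came from, so p-values cover the spread between these samples.

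Named genes are the 9, Tet1, Tet2, Tet3, Pou5f1 and Sox2, up to 4 called genes of each list with the largest change, and the 2 genes most like each of the 9 in pattern. The values of 1 gene that this rule names are not reported here. Genes outside this rule, mostly extremes of a list or of a pair, were named after their values were seen. They are Gbx2, Dppa3, Fgf5, Foxd3, Dnmt3b, Tcl1b2, Cdx2, Thy1, Tubb3 and marker genes under 1 RPKM. Promoter windows and motifs were read with Python 3.11.15 from the RefSeq table of GRCm38.p6, and figures were drawn with matplotlib 3.10.9.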

Additional observations from a re-analysis of the deposited data

How the results depend on the processing

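All 9 genes were called lower in NPs in each of the 15 alternatives, and Zfp42 was called lower in TET TKO ESCs in each of 16. Tbx3 was called in TET TKO ESCs in 5 of the 16, so that 2 genes in place of 1 were called by DESeq2, without the filter on low counts and with the replicate block, at log2 fold changes of −3.14, −3.02 and −3.28. At an adjusted p under 0.05 with no fold limit 6 were. Leaving out any 1 ESC library took Esrrb (adjusted p = 0.0837 to 0.0913, edgeR) and Tcl1 (0.0763 to 0.0993) over this limit. Prdm14 was over it without ESC library 1 (0.0524), and Tcl1 without TET TKO library 1 (0.0977; edgeR). Leaving out a library gave 1 to 2 called genes, with Tbx3 called, at −3.84, without TET TKO library 3. The sign of Fbxo15 in TET TKO ESCs, 0.02 as reported, was negative in 8 of 14 fits: −0.14 with library sizes alone, −0.12 with upper-quartile scaling, −0.09 with DESeq2, −0.01 with the replicate block, −0.05 with thinned counts, and −0.16 to −0.04 without ESC library 3 or TET TKO library 2 or 3. Leaving out each library in turn gave Fbxo15 −0.16 to 0.24 and Nanog −0.68 to 0.03. The value of Nanog turned to 0.03 without TET TKO library 1. The causes were not tested.

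Counts over all genes moved more in TET TKO ESCs, where 169 genes were called lower and 153 higher. DESeq2 gave 506 and 404, no filter 689 and 574, the replicate block 332 and 342, and an adjusted p under 0.05 alone 1770 and 3183. At least 2-fold gave 287 higher genes and library sizes alone 99. Without 1 library, 36 to 168 were lower and 14 to 161 higher. The counts were 36 and 14, 41 and 18, and 50 and 24 without ESC libraries 1, 2 and 3, and 61 and 65, and 99 and 91 without TET TKO libraries 1 and 2. The cause was not tested. In NPs, 1517 genes were lower and 1891 higher, against 2588 lower without the filter, and 4738 and 4996 at an adjusted p under 0.05 alone. With library sizes alone, the ESC levels of Tfcp2l1, Zfp42 and Prdm14 became 91.7, 312 and 21.7 RPKM and the NP level of Nr0b1 2.81 RPKM.

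The labels do not say whether samples of the same number belong together. The correlation of their deviations from the group means was −0.0798, 0.000326 and −0.189 for NPs and −0.126, 0.45 and 0.27 for TET TKO ESCs with ESCs. Samples of different number gave −0.148 to 0.173 for NPs and −0.499 to 0.307 for TET TKO ESCs. The replicate block left 9 of 9 called in NPs and called 2 in TET TKO ESCs, Zfp42 and Tbx3 (adjusted p = 0.000328 for Tbx3, edgeR). Depth limits Tcl1 and Prdm14 in NPs, with 3 and 8 counts in all.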
